A study of Mus musculus with 8 samples.

Results

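Imprinted genes are genes whose copy is read mainly from 1 parent's chromosome. The levels of a list of 40 of them were followed in mouse embryonic stem cells (mESCs) that were flown on a satellite or kept on the ground, with or without the DNA damage response gene Rad9. Members were the listed symbols whose Ensembl identifier had a row in the gene count table and at least 10 counts in some library. Rows were found for 37 of the 40, and all 37 passed. Rian, Mirg and Kcnq1ot1 had no matching row and were not analysed here. The whole table holds 50686 gene identifiers.

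The series has 8 libraries, 1 for each combination of location (space or ground), genotype (R9wt, wild-type mESCs, or R9del, Rad9-/- mESCs) and culture duration (D1, 1 day, or D5, 5 days). Space cells grew in culture devices of a payload inside the SJ-10 satellite, and ground cells went through the same payload procedure on the ground. Cells were fixed in RNAlater inside the devices. D1 and D5 cells were seeded at different densities and sat over separate temperature controllers, and wild-type and Rad9-/- cells of D5 also differed in seeding, so these factors cannot be told apart from day and, in part, genotype. Every condition is a single library, so each comparison set 4 libraries of different conditions against 4 others, and p-values measure the spread among such libraries only. Nothing in the labels says whether each genotype was 1 clone.

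Imprinting is laid down in the germ line as DNA methylation at control regions, and it is protected in early embryos and in mESCs by factors such as Zfp57, Trim28 and Dnmt1. Within an imprinted cluster, a control region often acts on several neighbours at a time, so that paternally and maternally expressed genes sit side by side. Many maternally expressed members restrain growth of the embryo or placenta, and many paternally expressed members favour it. mESC cultures are known to vary in imprinted expression between lines and passages. The counts do not separate the 2 parental copies: "paternally expressed" and "maternally expressed" below name the copy that is usually active in the mouse, taken from general knowledge, and several members (Copg2, Commd1, Ppp1r9a, Cd81, Ube3a, Grb10) are imprinted only in some tissues.

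Library totals were 58238440 to 96416907 counts. The ground libraries of R9wt were the deepest. Rad9 itself read 20.8 to 28.6 CPM (the count scaled to a common library size with TMM factors) in the R9del libraries and 70.3 to 93.4 in the R9wt libraries, so the labelled genotypes were separate but transcript from the locus remained. All 10 mESC markers read over 10 CPM in every library, with Pou5f1 between 958 and 1804 CPM, and fibroblast (feeder) markers summed to 32.3 to 75.0 CPM. Of 9 trophoblast markers with a row, 3 stayed under 1 CPM in every library, with Tpbpa at 0, while Krt7 read 6.72 to 212 CPM. Of the 10 fibroblast markers 4 stayed under 1 CPM, with counts of Lum in 1 library only, while Thy1 read 11.8 to 38.7 CPM.

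The 37 members covered a wide range of levels. Levels can be compared between genes only per length, so CPM were divided by exon length in kb (RPKM, on mm9 gene models). Cd81, a tetraspanin membrane protein encoded next to the Kcnq1 domain, was highest, with a mean of 864 RPKM and a range of 513 to 1293 over the 8 libraries. Impact, a regulator of the Gcn2 translation pathway, followed at 257 RPKM, with a range of 202 to 356. Phlda2 (68.5 RPKM), Peg10 (61.8) and Mest (39.4) came next, and their ranges overlapped widely: Phlda2 spanned 31.8 to 132, Peg10 10.8 to 139 and Mest 3.83 to 139. Copg2 (18.9), Meg3 (18.7), Mcts2 (17.5) and Sgce (14.5) were close together, and their order was not resolved by the spread between libraries. At the low end, Plagl1 had a mean of 0.253 RPKM and Airn, the antisense transcript of Igf2r, 0.0795 RPKM.

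Members differed as much in how far they moved across libraries. On the CPM scale the highest library exceeded the lowest 1.76 times for Impact, 1.87 times for Commd1 and 1.99 times for Nnat. For Mest this ratio was 36.4, for Magel2 38.5, for H19 39.4 and for Igf2 64.0. Kcnq1, the potassium channel gene of the cluster named after it, spanned 2 to 416 counts per library. A floor of 3 counts corresponds to 0.0311 to 0.0515 CPM, and only the 2 counts of Kcnq1 in Space_R9del_D5 lay under it. These limits cover counting error only.

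**Figure D1:**
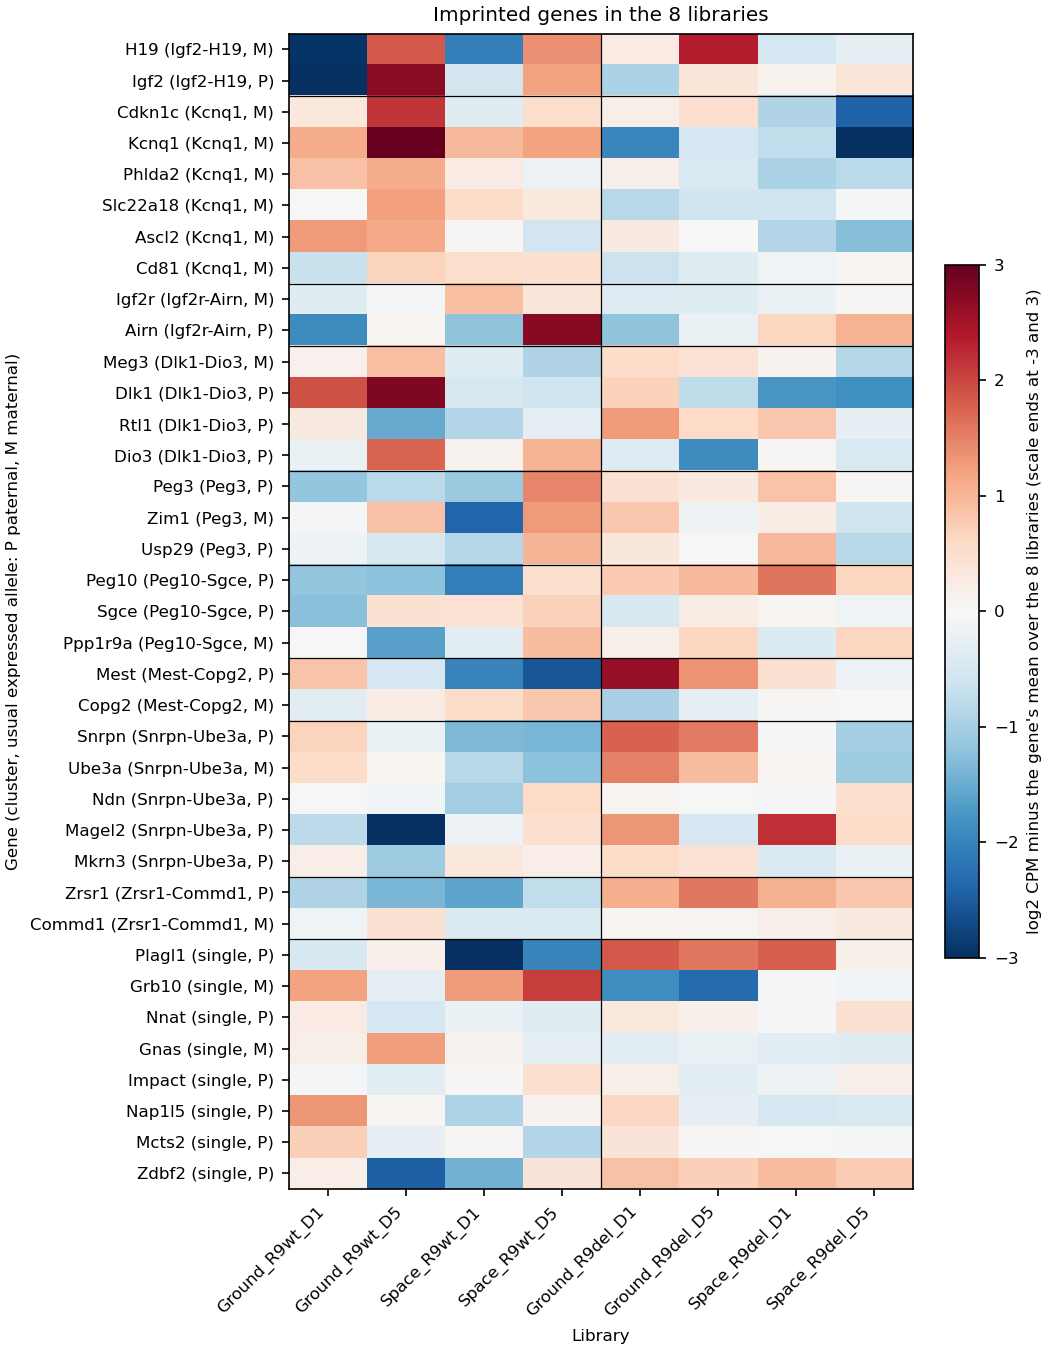
Heat map of the 37 imprinted genes (rows, grouped by cluster, with the usual expressed allele as P or M) in the 8 libraries (columns). Colour gives log2 CPM minus the mean of the gene over the libraries, with the scale ending at -3 and 3. The R9del columns on the right are mostly red for Plagl1, Zrsr1, Peg10 and Zdbf2 and mostly blue for Kcnq1 and Grb10, and H19 and Igf2 are darkest blue in Ground_R9wt_D1.

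The first comparison asked which members differ between space and ground, over both genotypes and both durations. In all, 6 members were called lower in space and 1 higher, by the rule of the study, which asks for a 2-fold difference and p under 0.05, applied here to p before adjustment. Ube3a, Snrpn, Dlk1, Mest, Ascl2 and Cdkn1c were lower, and Airn was higher. Among all 20544 tested genes, 8.39% were called lower and 2.58% higher by this rule, against 16.2% and 2.70% of the members. Of the members 1, Ube3a, passed an adjusted p of 0.05, as did 6.31% of all genes. With matched libraries as a block, 6 members and 8.47% of all genes did: Ube3a (adjusted p = 0.00352), Mest (0.00144), Ascl2 (0.0105), Snrpn (0.0116), Dlk1 (0.0156) and Grb10 (0.0386). The median log2 fold change of the members was -0.22, beside 0.01 over all tested genes.

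Ube3a, with the smallest p of the members, and Snrpn lie in a cluster on chromosome 7, the mouse counterpart of the Prader-Willi and Angelman region. Ube3a, an E3 ubiquitin ligase (chr7:66484122-66562097 in mm9), read 24.0, 18.1, 44.2 and 20.4 CPM in the space libraries, in the order R9wt D1, R9wt D5, R9del D1 and R9del D5 that is kept for this comparison. In the ground libraries it read 62.2, 44.2, 121 and 81.2 CPM. Each space library was lower than its ground partner of the same genotype and day, and the groups touched where Space_R9del_D1 and Ground_R9wt_D5 were nearly equal. That is a log2 fold change of -1.53 with a standard error of 0.38, a 2.89-fold fall, with an adjusted p of 0.0417 in edgeR's quasi-likelihood test.

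Snrpn, which encodes a spliceosomal SmN protein and starts at the control region of the cluster, read 1.73, 1.72, 4.31 and 2.21 CPM in space. On the ground it read 6.99, 3.84, 15.01 and 12.96 CPM. Here too every matched pair was lower in space, and only Space_R9del_D1 exceeded the lowest ground library. Its log2 fold change was -1.96 with a standard error of 0.51 (adjusted p = 0.0513). Both calls held with each of the 8 libraries left out in turn, while the adjusted p of Ube3a then lay between 0.0181 and 0.129 and passed 0.05 only without Space_R9del_D1 or Ground_R9wt_D5.

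The other 3 members of the cluster did not pass the test. Ndn, a neuronal growth regulator of the MAGE family, had a log2 fold change of 0.12, Mkrn3 of -0.14 and Magel2 of 1.09, the last on 9 to 272 counts per library. Snrpn, Ndn, Mkrn3 and Magel2 are usually paternally expressed, and Ube3a maternally in neurons. Among the 4 tested neighbours of Ube3a within 2 Mb that are not members, the median log2 fold change was -1.04 and 2 were called lower. For the 3 neighbours of Snrpn, 2 of them shared with Ube3a, it was -0.81 and 1 was called lower. The neighbours of Ndn had a median of 0.55 over 11 genes.

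In the Dlk1-Dio3 cluster on chromosome 12, all 4 members had a log2 fold change under 0, though that of Dio3 changed sign under an alternative. Meg3, a maternally expressed non-coding RNA, read 241, 167, 335 and 171 CPM in space and 338, 575, 454 and 419 CPM on the ground. It was the only member whose 4 space libraries lay entirely below the 4 ground libraries. The smallest gap was between Space_R9del_D1 and Ground_R9wt_D1. Its log2 fold change of -0.97 with a standard error of 0.27 stayed just short of a 2-fold change (adjusted p = 0.0701, exact permutation p = 0.0286, which is the smallest that 4 against 4 libraries allow). Under the 2-fold limit as reported, Meg3 was called without Space_R9del_D1 (-1.21) or Ground_R9wt_D1 (-1.08), and with the other variables as additive terms (-1.01, edgeR adjusted p = 0.0497). By DESeq2 the adjusted p was 0.0379 at a log2 fold change of -0.91, and with matched libraries as a block the edgeR adjusted p was 0.0566. Groups that did not overlap, with space lower, were found for 9.38% of all tested genes, and with space higher for 5.06%.

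Dlk1, the paternally expressed Notch ligand relative of the same cluster, read 1.63, 1.51, 0.682 and 0.637 CPM in space. On the ground it read 8.54, 15.8, 3.69 and 1.34 CPM. Its fold of 6.60 was the largest of the called members, but the groups overlapped, since Ground_R9del_D5 lay below both R9wt space libraries. This was a log2 fold change of -2.72 with a standard error of 0.73 (adjusted p = 0.0568), and it became -2.02 without Ground_R9wt_D5. Rtl1, a retrotransposon-derived gene, and Dio3, the deiodinase that inactivates thyroid hormone, did not pass, at -0.47 and -0.12.

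Mest, a paternally expressed gene of the alpha/beta hydrolase family on chromosome 6, read 22.7, 15.1, 123 and 79.1 CPM in space and 164, 63.1, 549 and 227 CPM on the ground. Every pair was lower in space, although the R9del space libraries reached the level of the R9wt ground libraries. This gave a log2 fold change of -2.06 with a standard error of 0.76 (adjusted p = 0.17). It was no longer called without Space_R9wt_D1 (-1.79) or Ground_R9del_D1 (-1.33), and it was -2.68 without Space_R9del_D1. Its neighbour Copg2, a coatomer subunit on the other strand, was higher in space in all 4 pairs but under the 2-fold limit, with a log2 fold change of 0.67.

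The Kcnq1 cluster on chromosome 7 holds the maternally expressed cell cycle inhibitor Cdkn1c, the trophoblast factor Ascl2 and the placental growth regulator Phlda2. Ascl2 read 16.5, 10.8, 8.83 and 6.69 CPM in space and 39.2, 35.7, 19.3 and 16.1 CPM on the ground. Only Space_R9wt_D1 and Ground_R9del_D5 overlapped, by a narrow margin. It fell at a log2 fold change of -1.36 with a standard error of 0.39 (adjusted p = 0.0734), and the call held without any 1 library.

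Cdkn1c was lower in all 4 pairs, at 5.12, 9.39, 3.52 and 1.22 CPM in space and 8.08, 29.2, 7.45 and 9.23 CPM on the ground. Its log2 fold change of -1.49 (adjusted p = 0.252) rested on single libraries. The value was -0.78 without Ground_R9wt_D5, and the call was also lost without Space_R9wt_D1 (-1.51), Space_R9del_D1 (-1.36) or Space_R9del_D5 (-1.17). Phlda2 was lower in all 4 pairs as well, at -0.88 and under the 2-fold limit. Slc22a18, a transporter, and Cd81 had values of -0.08 and 0.42. Kcnq1 was not called either, at a log2 fold change of -1.56 with a standard error of 1.17 (adjusted p = 0.549) and with space higher in 1 of 4 pairs. Its value was 0.24 without Ground_R9wt_D5, the library with the most Kcnq1 counts.

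Markers of differentiated cells were read beside these genes, because Ascl2, Phlda2 and Cdkn1c are also trophoblast genes. The summed level of the trophoblast list was 29.9 to 485 CPM in space and 25.9 to 222 CPM on the ground. Cdx2, 1 of its 9 markers with a row, was called lower in space (adjusted p = 0.032), and no other was called. Of the 10 mESC markers Fgf4 was called lower and Esrrb higher, and their sum was 4493 to 6135 CPM in space and 5476 to 8255 on the ground. Among the 10 primitive endoderm markers Sox17 was called lower and Pdgfra higher. Pdgfra is also on the fibroblast list, where it was the 1 call among 7 tested, with a median log2 fold change of the list of 0.52 and a summed level of 34.2 to 75.0 CPM in space and 32.3 to 58.1 on the ground. Of 9 tested mesoderm markers Mesp1 was called lower, and none of 5 early neural markers was called. The part of cell makeup in the results was not tested, and in bulk RNA fewer cells of a type and less RNA per cell cannot be told apart.

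In the Igf2r-Airn pair on chromosome 17, Airn was called higher at a log2 fold change of 2.00 with a standard error of 0.84 (adjusted p = 0.234), but it held only 4 to 69 counts per library. In space these were 5, 69, 19 and 21 counts, and on the ground 4, 16, 5 and 11. Of its exon length 23.5% lies inside Igf2r or Mas1 on the other strand, Igf2r held 4023 to 9840 counts, and with the strand setting not given, reads of Igf2r within the Airn counts cannot be told apart. The value was 1.04 without Space_R9wt_D5, and the call was also lost without Space_R9del_D5 (2.10), Ground_R9wt_D1 (1.74), Ground_R9del_D1 (1.85) or Ground_R9del_D5 (2.17). Igf2r, the mannose 6-phosphate receptor that clears Igf2 and that Airn silences on the paternal copy, was 1.54-fold higher, with space ahead in all 4 pairs and no call. H19 and Igf2 were not called, at -1.20 and -0.65. None of the 3 members of the Peg3 cluster, the 3 of the Peg10-Sgce cluster, the 2 of Zrsr1-Commd1 or the 8 single genes was called in this comparison. Grb10, an adaptor that restrains insulin signalling, was higher in space in all 4 pairs (log2 fold change 1.25), with groups that overlapped and no call (adjusted p = 0.449). With the other variables as additive terms its log2 fold change was 1.63 (adjusted p = 0.0235), and with matched libraries as a block 1.65 (adjusted p = 0.0386). Plagl1 and Mcts2 were lower in all 4 pairs, also without a call, though Plagl1 was called lower with the block (-1.50) and with additive terms (-1.37).

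Counted over matched pairs, 10 members were lower in space in all 4 pairs and 5 were higher in all 4. Over all tested genes, 18.1% were lower and 14.9% higher in every pair, against 27.0% and 13.5% of the members.

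**Figure D2:**
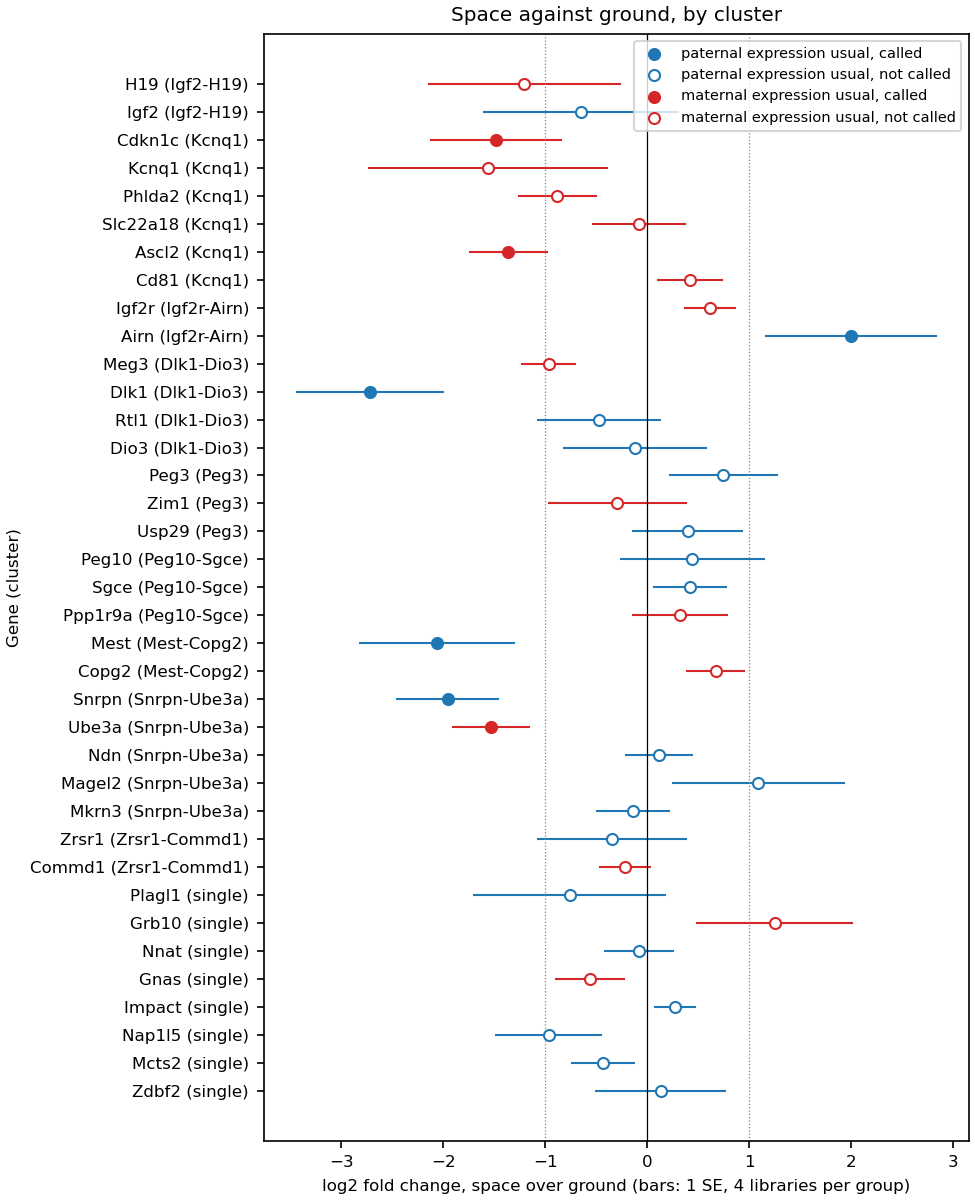
Log2 fold change of each of the 37 imprinted genes in space over ground, in cluster order, with bars of 1 SE from 4 libraries per group. Filled points passed the 2-fold and p limits, colours give the usual expressed allele, and dotted lines mark a 2-fold change. The points farthest to the left are Dlk1 at -2.72, Mest at -2.06 and Snrpn at -1.96.

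The comparison of R9del with R9wt asked which members differ with loss of Rad9. Of the members 6 were called higher and 6 lower, 32.4% of the 37, beside 13.8% of all genes in either direction. Without Ground_R9wt_D5 these were 3 higher and 2 lower, beside 12.4% of all genes, and the share of the members was then near that background. Zrsr1, Plagl1, Mest, Peg10, Zdbf2 and Rtl1 were higher, and Kcnq1, Dlk1, Grb10, Dio3, Slc22a18 and Phlda2 were lower. Over all tested genes 6.17% were called higher and 7.63% lower, against 16.2% of the members each way. By an adjusted p, 1.81% of all genes and 1 member, Zrsr1, were called. With matched libraries as a block 8.13% of all genes and 8 members passed: Mest (adjusted p = 0.0058), Zrsr1 (0.0107), Grb10 (0.0107), Kcnq1 (0.0235), Phlda2 (0.0312), Ascl2 (0.0368), Plagl1 (0.0408) and Peg10 (0.0483). Calls for Zrsr1, Plagl1, Peg10, Grb10 and Kcnq1 held with each library left out in turn, and those for the other 7 did not. For Kcnq1, DESeq2's Wald test gave no adjusted p in this comparison.

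The calls were counted by the copy a gene is usually read from. All 6 members called higher are usually paternally expressed. Of the 6 called lower, Kcnq1, Grb10, Slc22a18 and Phlda2 are usually maternally expressed, and Dlk1 and Dio3 paternally. Among the 21 paternally expressed members, 14 had a log2 fold change above 0 and the median was 0.19. Among the 16 maternally expressed members, 11 had one below 0 and the median was -0.60. Over all tested genes the median was -0.06. Outside the members, Slc38a4, a paternally expressed gene of the list of other imprinted genes, was called lower in R9del. The other calls of that list were not counted by copy.

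Within each matched pair of libraries the median of the maternally expressed members was below 0 in R9del, at -0.53 in space D1, -0.52 in space D5, -0.06 in ground D1 and -1.01 in ground D5. That of the paternally expressed members was 1.30, -0.11, 0.69 and 0.67 in the same order. Space D5 was thus the pair in which the paternally expressed members did not lie higher. Medians over all tested genes stayed between -0.04 and 0.03 in these pairs. Under 14 other settings of the analysis, the median of the paternally expressed members ran from 0.12 to 0.74 and that of the maternally expressed members from -0.76 to -0.47. Under these settings 3 to 8 paternally and 0 to 1 maternally expressed members were called higher. Those called lower numbered 0 to 2 and 2 to 5. These are descriptions of the list, and the difference between the 2 classes was not tested.

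**Figure D3:**
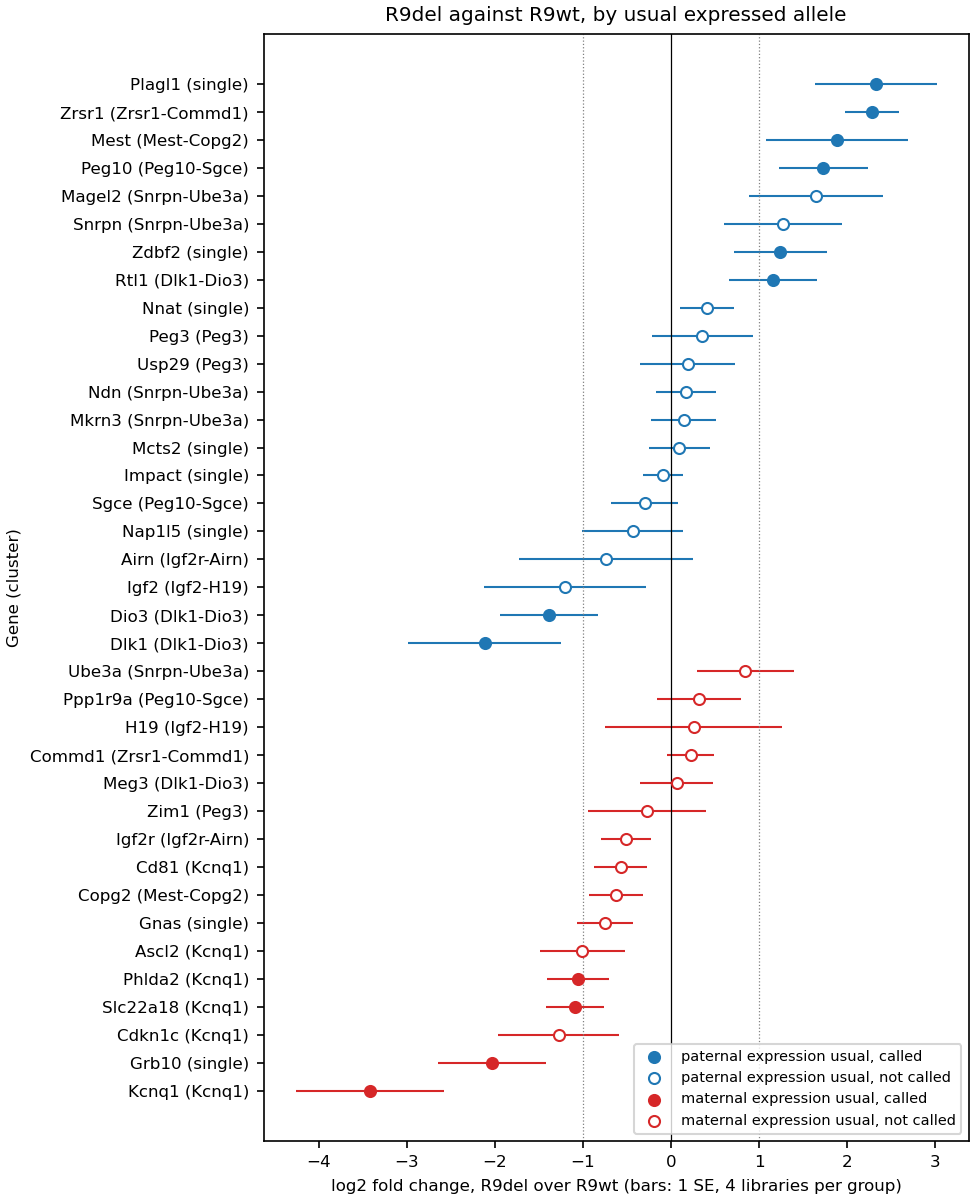
Log2 fold change of each of the 37 imprinted genes in R9del over R9wt, with bars of 1 SE from 4 libraries per group, ordered by value within the usually paternally expressed genes (blue) and the usually maternally expressed genes (red). Filled points passed the 2-fold and p limits. All 6 filled points to the right of 0 are blue, and Kcnq1 is farthest to the left at -3.42.

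Promoter sequences were read for the called genes. RefSeq windows of 300 bases (250 before to 50 after a start, build GRCm38.p6) were found for 30 of the 37 members. They are printed 5′ to 3′ on the strand of the gene for Zrsr1, the member with the smallest p, and for Plagl1, Mest, Zdbf2 and Grb10, the members called in this comparison whose window holds the hexamer TGCCGC bound by Zfp57. Capitals mark this hexamer or its reverse complement. The windows are chr11:22971755-22972054 (plus strand) for Zrsr1, chr10:13090582-13090881 (plus) for Plagl1, chr6:30737800-30738099 (plus) for Mest, chr1:63200108-63200407 (plus) for the upstream start of Zdbf2 and chr11:12037371-12037670 (minus) for Grb10.

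Zrsr1: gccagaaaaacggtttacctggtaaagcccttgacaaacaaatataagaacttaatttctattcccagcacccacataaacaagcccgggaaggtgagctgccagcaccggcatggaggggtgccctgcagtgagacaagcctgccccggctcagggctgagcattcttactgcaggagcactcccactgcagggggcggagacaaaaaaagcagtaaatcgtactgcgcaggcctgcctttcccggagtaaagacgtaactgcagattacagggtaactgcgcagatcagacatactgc
Plagl1: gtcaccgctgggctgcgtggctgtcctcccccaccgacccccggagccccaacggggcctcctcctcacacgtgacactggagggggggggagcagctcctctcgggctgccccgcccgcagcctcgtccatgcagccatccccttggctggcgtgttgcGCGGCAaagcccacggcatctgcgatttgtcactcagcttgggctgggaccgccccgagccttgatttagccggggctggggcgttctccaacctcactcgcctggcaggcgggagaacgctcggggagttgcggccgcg
Mest: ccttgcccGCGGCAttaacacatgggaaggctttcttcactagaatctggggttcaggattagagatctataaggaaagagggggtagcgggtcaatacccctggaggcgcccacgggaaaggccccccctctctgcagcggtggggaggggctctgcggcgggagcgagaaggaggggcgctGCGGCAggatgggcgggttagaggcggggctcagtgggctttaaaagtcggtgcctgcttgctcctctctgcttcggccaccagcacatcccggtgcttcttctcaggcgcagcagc
Zdbf2: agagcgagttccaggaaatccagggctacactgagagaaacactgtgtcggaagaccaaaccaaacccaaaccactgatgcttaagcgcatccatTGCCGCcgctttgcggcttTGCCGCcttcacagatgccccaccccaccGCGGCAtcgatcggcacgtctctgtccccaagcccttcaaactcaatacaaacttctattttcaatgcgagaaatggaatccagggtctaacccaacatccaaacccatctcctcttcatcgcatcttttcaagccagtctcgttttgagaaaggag
Grb10: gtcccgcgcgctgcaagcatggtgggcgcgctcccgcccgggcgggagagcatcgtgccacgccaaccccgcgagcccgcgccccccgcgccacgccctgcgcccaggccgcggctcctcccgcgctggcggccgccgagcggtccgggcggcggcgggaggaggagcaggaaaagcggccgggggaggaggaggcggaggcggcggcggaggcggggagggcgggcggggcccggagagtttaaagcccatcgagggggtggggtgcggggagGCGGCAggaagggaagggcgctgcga

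Of the 9 members called in this comparison with an entry 4 hold the hexamer, so it is not a feature that the called genes share. Dlk1, Dio3, Slc22a18 and Phlda2 have no match, and neither do the other starts of Zdbf2 and Grb10 and the upstream start of Mest. In the printed windows, Mest holds 2 copies and the upstream Zdbf2 window 3, while Plagl1 and Grb10 hold 1 each. The Zrsr1 window has no match, with 10 CpG dinucleotides beside 17 for Mest, 26 for Plagl1, 15 for Zdbf2 and 45 for Grb10. Counted on both strands, TGCCGC was present in some window of 13 of the 30 members with an entry (43.3%), and in 13.1% of 27025 genes of the table. Counted by window, it was in 30.4% of the 46 windows of members and 11.6% of all 32851 windows. The members' windows were richer in G and C, with a median of 60.2% against 52.7% over all windows. They also held more CpG dinucleotides, which the hexamer contains, with a median of 17 against 7. No test was made of the share. For the YY1 motif GCCATNTT the shares were 6.67% of members (Ube3a and Mkrn3) and 6.96% of all genes. The hexamer was present in 47.1% of the paternally and 38.5% of the maternally expressed members. A match is a run of letters and not a bound site, and the series measured neither binding nor methylation.

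Zrsr1, a paternally expressed splicing factor gene that lies inside Commd1 on the other strand (chr11:22873215-22876498 in mm9), had the smallest p of the members. It read 27.2, 22.7, 27.7 and 39.0 CPM in the R9del libraries, in the order space D1, space D5, ground D1 and ground D5 that is kept for this comparison. In R9wt it read 4.33, 7.72, 6.96 and 5.04 CPM. No R9del library came near any R9wt library. The rise was 4.85-fold, with a log2 fold change of 2.28, a standard error of 0.30 and an adjusted p of 0.0304 (edgeR's quasi-likelihood test). Its log2 fold change stayed between 2.13 and 2.43 with any 1 library left out. The adjusted p then passed 0.05 without Space_R9wt_D5, Space_R9del_D5, Ground_R9wt_D1 or Ground_R9del_D5, and was 0.0718 to 0.105 otherwise, where no gene of the table passed.

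The 31 tested neighbours of Zrsr1 within 2 Mb had a median log2 fold change of 0.73, and 5 of them were called higher and 0 lower. Commd1, the copper metabolism gene around it, was not called, at 0.22. Exons of Commd1 overlap Zrsr1 and B3gnt2, and how reads there were assigned is not given in the sources used here.

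Plagl1, a zinc finger gene that regulates other imprinted genes, read 3.84, 1.22, 3.93 and 3.33 CPM in R9del and 0.134, 0.278, 0.791 and 1.24 CPM in R9wt. The groups met only where Space_R9del_D5 and Ground_R9wt_D5 were alike. The log2 fold change was 2.32 with a standard error of 0.69 (adjusted p = 0.109), and 2.92 without Ground_R9wt_D5. All 18 tested neighbours together had a median of -0.10.

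Peg10, a retrotransposon-derived gene needed for the placenta, read 926, 476, 527 and 602 CPM in R9del and 72.2, 425, 136 and 131 CPM in R9wt. The 4 R9del libraries lay above the 4 R9wt libraries, with Space_R9wt_D5 just below them. It rose at a log2 fold change of 1.73 with a standard error of 0.51 (adjusted p = 0.105), and 2.50 without Space_R9wt_D5. Sgce, which shares its promoter region with Peg10 in the opposite direction, did not pass at -0.30, and Ppp1r9a did not at 0.32. The 17 neighbours of Peg10 had a median of 0.55.

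Mest and Zdbf2 were also higher in all 4 pairs. Mest had a log2 fold change of 1.89 with a standard error of 0.81 (adjusted p = 0.227) on the values given above. Its call was lost without Space_R9wt_D1 (1.62), Space_R9wt_D5 (1.57), Ground_R9wt_D5 (1.86), Ground_R9del_D1 (1.11) or Ground_R9del_D5 (1.94), and it was 2.86 without Ground_R9wt_D1. Zdbf2, a zinc finger gene on chromosome 1, read 78.2, 70.3, 76.1 and 67.7 CPM in R9del and 15.4, 53.7, 47.2 and 7.61 CPM in R9wt. The R9del libraries were close to each other and all above R9wt, whose own values spread widely. This was a log2 fold change of 1.24 with a standard error of 0.53 (adjusted p = 0.227). It was lost as a call without Space_R9wt_D1 (1.03), Space_R9del_D1 (1.20), Space_R9del_D5 (1.26), Ground_R9wt_D5 (0.91), Ground_R9del_D1 (1.22) or Ground_R9del_D5 (1.30).

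In the Kcnq1 cluster 3 of the 6 members were called lower in R9del, and all 6 had a log2 fold change below 0. Kcnq1 was counted 17, 2, 7 and 21 times in the R9del libraries and 53, 57, 75 and 416 times in the R9wt libraries. On the CPM scale this was 0.242, 0.0335, 0.105 and 0.287 against 0.791, 0.934, 0.872 and 4.65. The groups did not overlap, and Ground_R9wt_D5 stood far above the other R9wt libraries. Between genotypes the log2 fold change was -3.42 with a standard error of 0.84 (adjusted p = 0.0683), and -2.35 without Ground_R9wt_D5.

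Slc22a18 read 12.7, 18.7, 10.8 and 12.9 CPM in R9del and 28.5, 23.7, 19.2 and 45.6 CPM in R9wt. Its groups did not overlap either, though Space_R9del_D5 and Ground_R9wt_D1 were nearly equal. It had a log2 fold change of -1.09 with a standard error of 0.33 (adjusted p = 0.112) and lost its call without Ground_R9wt_D5 (-0.79) or Ground_R9del_D1 (-0.99). Phlda2 fell at -1.05 with a standard error of 0.35 (adjusted p = 0.142), a call lost without Space_R9del_D1 (-0.92), Space_R9del_D5 (-0.95), Ground_R9wt_D1 (-0.95) or Ground_R9wt_D5 (-0.83). Cdkn1c (-1.27), Ascl2 (-1.004) and Cd81 (-0.57) did not pass, and the first 2 of these were lower in all 4 pairs. Ascl2 had an adjusted p of 0.281, which was 0.0344 with additive terms and 0.0368 with the block. Neighbours of Kcnq1 that are not members, 74 tested genes, had a median of -0.13.

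Grb10, on chromosome 11, read 47.8, 46.9, 13.6 and 9.92 CPM in R9del and 120, 209, 114 and 40.9 CPM in R9wt. Every pair was lower in R9del, and only Ground_R9wt_D5 fell within the range of the R9del libraries. Between genotypes the log2 fold change was -2.03 with a standard error of 0.61 (adjusted p = 0.113). In R9del both space libraries read above both ground libraries, while in R9wt the D1 libraries were close to each other.

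The Dlk1-Dio3 cluster did not move as a unit. Dlk1 read 0.682, 0.637, 3.69 and 1.34 CPM in R9del against 1.63, 1.51, 8.54 and 15.8 in R9wt, a log2 fold change of -2.11 with a standard error of 0.87 (adjusted p = 0.213). Within each location the R9del libraries were the lower ones, and the groups overlapped because both genotypes were low in space. Its call was lost without Space_R9del_D1 (-1.86), Space_R9del_D5 (-1.85), Ground_R9wt_D1 (-1.99), Ground_R9wt_D5 (-1.29) or Ground_R9del_D5 (-2.02), and it was -2.95 without Ground_R9del_D1.

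Dio3 fell by the same rule at -1.39 (adjusted p = 0.205), without a call when Space_R9wt_D5 (-1.32), Space_R9del_D5 (-1.41), Ground_R9wt_D5 (-0.92), Ground_R9del_D1 (-1.43) or Ground_R9del_D5 (-1.09) was left out. Rtl1 rose at 1.16 (adjusted p = 0.228), without a call when Space_R9wt_D1 (1.05), Space_R9wt_D5 (1.23), Space_R9del_D1 (1.12), Ground_R9wt_D5 (0.93), Ground_R9del_D1 (0.90) or Ground_R9del_D5 (1.21) was left out. Both held at most 421 counts in any library. Meg3 was level between genotypes, with a log2 fold change of 0.06 and a standard error of 0.41. Neighbours of Dlk1 had a median of -0.55 over 32 genes.

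All 5 members of the Snrpn-Ube3a cluster had a log2 fold change above 0, between 0.14 for Mkrn3 and 1.64 for Magel2, and none was called, though Ndn and Mkrn3 changed sign under an alternative. With matched libraries as a block Snrpn (1.14) and Magel2 (1.79) were called higher, as they were with additive terms and by DESeq2, and Magel2 also without the filter on low counts. H19 and Igf2 were not called, at 0.26 and -1.20, and neither were the 3 members of the Peg3 cluster, which lay between -0.27 and 0.36. Gnas, which encodes the stimulatory G protein alpha subunit, was lower in all 4 pairs at -0.75 and under the 2-fold limit. In all, 10 members were higher and 11 lower in every pair, 27.0% and 29.7% of the 37, beside 19% and 19.2% of all genes. Groups that did not overlap were found for 3 members higher and 2 lower, 8.11% and 5.41%, beside 7.07% and 7.2% of all genes, so that these 2 shares were near the background.

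Of 8 early neural markers with a row, Tubb3 was called higher in R9del (adjusted p = 0.0336) and Zic1 lower (adjusted p = 0.228). Their sum was 102 to 133 CPM in R9del and 27.4 to 48.1 CPM in R9wt, a gap carried by Tubb3 (72.1 to 115 against 6.24 to 26.8 CPM), while Nes overlapped and Dcx was at 0 in 6 of the 8 libraries. Of 9 tested mesoderm markers Kdr, Myh6 and Meox1 were called higher and T, Tbx6 and Tnnt2 lower, with Meox1 at an adjusted p of 0.0448, and their sums overlapped (22.5 to 30.2 against 16.1 to 32.2 CPM). Dppa5a of the mESC list and Eomes of the trophoblast list were called lower, and Sox7 of the primitive endoderm list higher. Sums of mESC markers overlapped, at 5221 to 6135 CPM in R9del and 4493 to 8255 in R9wt. Trophoblast sums were 42.5 to 147 in R9del and 25.9 to 485 in R9wt, and primitive endoderm sums 44.9 to 223 and 17.6 to 152. Their part in the results was not tested.

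**Figure D4:**
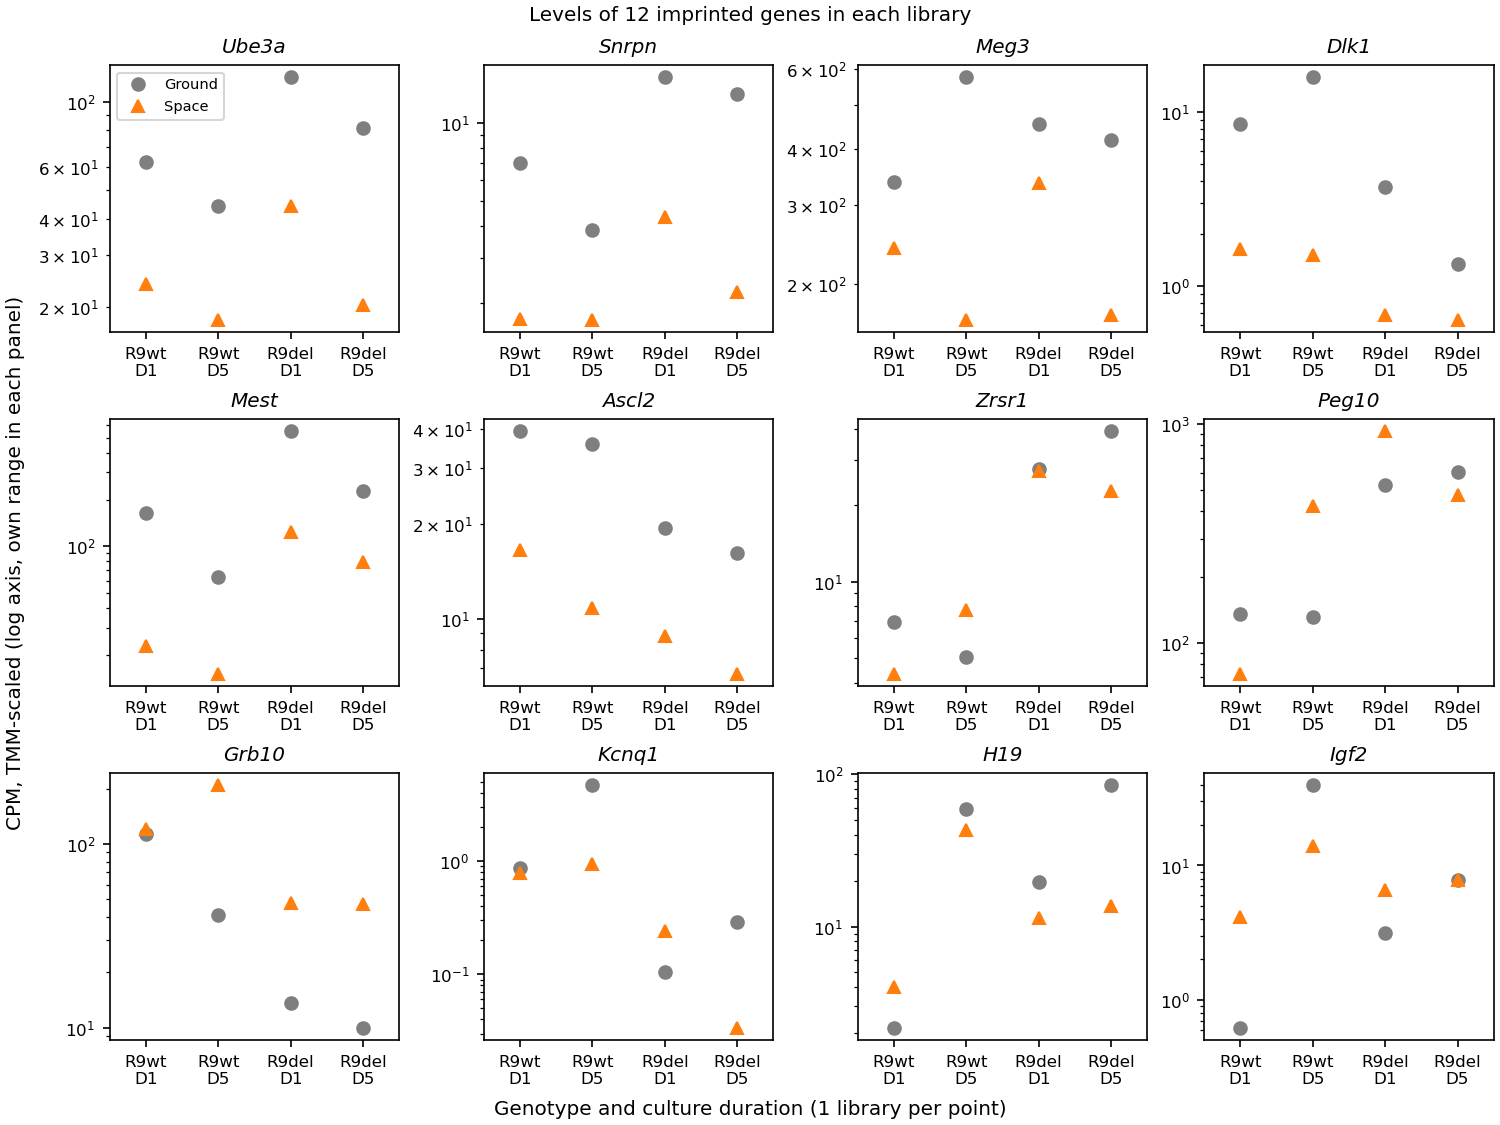
Levels of 12 imprinted genes in CPM on log axes, with a range of its own in each panel, for the 4 combinations of genotype and day on the x axis. Each point is 1 library, grey circles for ground and orange triangles for space. Space lies below ground in all 4 pairs for Ube3a, Snrpn, Meg3, Dlk1, Mest and Ascl2, and R9del lies above R9wt without overlap for Zrsr1 and Peg10.

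D5 was compared with D1 to ask which members change with time in the devices. H19, Igf2 and Airn were called higher at D5, 8.11% of the members, and no member was called lower. Over all tested genes 2.43% were called higher and 1.06% lower. No gene passed an adjusted p of 0.05 in edgeR's quasi-likelihood test (0.0%), while 500 genes were called higher and 218 lower before adjustment, and DESeq2's Wald test gave 96 genes at an adjusted p, none of them a member. With matched libraries as a block only H19 was still called (log2 fold change 2.66), while Igf2 (2.02) and Airn (1.74) were not. Their p in that edgeR quasi-likelihood fit was 0.0569 and 0.0597 before adjustment. Airn also missed the p limit with the size factors of DESeq2, with library size alone and without the filter on low counts.

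H19 and Igf2 are neighbours on chromosome 7 that share an enhancer set and 1 control region. H19, a maternally expressed non-coding RNA, read 42.8, 13.7, 59.3 and 84.7 CPM at D5, in the order space R9wt, space R9del, ground R9wt and ground R9del that is kept for this comparison. At D1 it read 4.02, 11.5, 2.15 and 19.7 CPM. D5 was higher in every pair, by a small margin in space R9del, which alone lay within the D1 range. Between days the log2 fold change was 2.43 with a standard error of 0.74 (adjusted p = 0.962), the call held without any 1 library, and the value was 3.09 without Ground_R9del_D1.

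Igf2, the paternally expressed insulin-like growth factor, read 14.0, 7.83, 39.5 and 7.79 CPM at D5 and 4.14, 6.54, 0.617 and 3.14 CPM at D1. No D1 library reached a D5 library. Between days the log2 fold change was 2.26 with a standard error of 0.75 (adjusted p = 1.00), and it was 1.45 and not called without Ground_R9wt_D5. Groups that did not overlap with D5 higher were found for 1 member, Igf2, and 1.68% of all genes, and with D5 lower for no member and 1.17% of all genes. The 83 neighbours of H19 had a median log2 fold change of 0.03.

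The ratio between days was read in each genotype. For H19 the ratio of D5 to D1 was 10.7 in space and 27.5 on the ground for R9wt, and 1.20 and 4.31 for R9del. For Igf2 the same ratios were 3.39 and 64.0 in R9wt and 1.20 and 2.48 in R9del. The interaction of genotype and day had a log2 coefficient of -2.42 for H19 and -3.04 for Igf2, with unadjusted p of 0.0367 and 0.0359 and adjusted p of 1.00 for both.

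Markers of extraembryonic cells moved with day, and H19 and Igf2 are known to be abundant in those cells. Of 10 primitive endoderm markers, all tested, 5 were called higher at D5 (Gata6, Gata4, Foxa2, Afp and Dab2), and their sum was 52.8 to 223 CPM at D5 and 17.6 to 68.1 at D1. The highest of these sums was that of Space_R9del_D5, the D5 library with the least H19 (13.7 CPM). In space R9del the ratio of D5 to D1 was 1.20 for both H19 and Igf2. Of 9 trophoblast markers with a row, Hand1, Krt7 and Plac1 were called higher, and their sum reached at most 485 CPM at D5 and 74.7 at D1, with the lowest D5 library (Space_R9del_D5) within the D1 range. Tpbpa was at 0 in every library. Of 7 tested fibroblast markers 1 was called higher (list median log2 fold change 0.35), and of 5 early neural markers 1 lower (-0.67). No mESC or mesoderm marker was called between days. The part of any of these cell types in the rise of H19 and Igf2 was not tested.

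Airn had a log2 fold change of 1.94 (adjusted p = 1.00), on the counts given above, and its call was lost without Space_R9wt_D1 (1.76), Space_R9wt_D5 (0.93), Space_R9del_D5 (2.04), Ground_R9wt_D1 (1.67) or Ground_R9del_D1 (1.78). It was 2.76 without Space_R9del_D1. Over pairs, H19, Igf2, Airn and Commd1 were higher at D5 in all 4, and Ascl2, Mest, Snrpn, Ube3a and Mcts2 were lower in all 4. These are 10.8% and 13.5% of the members, and 10.5% and 9.25% of all genes were higher and lower in every pair.

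Over the 3 comparisons, 19 of the 37 members (51.4%) were called at least once and 18 never, beside 27.2% of all 20544 tested genes called at least once. No test was made of this share. The 18 were Cd81, Commd1, Copg2, Gnas, Igf2r, Impact, Magel2, Mcts2, Meg3, Mkrn3, Nap1l5, Ndn, Nnat, Peg3, Ppp1r9a, Sgce, Usp29 and Zim1, with log2 fold changes from -1.21 to 1.64.

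Whether an effect of 1 variable depends on another was asked with interaction terms. No gene passed an adjusted p for any of the 3 in edgeR's quasi-likelihood test. By an unadjusted p under 0.05, 2.97% of all genes passed for location by genotype, 6.63% for location by day and 4.4% for genotype by day. Among the members 1, 5 and 5 passed. With library size alone these were 1, 3 and 5, with Impact and Zdbf2 no longer among those for location by day (3 of 37 beside 6.59% of all genes), and by DESeq2 1, 6 and 7, beside 4.41%, 9.51% and 6.09% of all genes. DESeq2's Wald test called 24, 78 and 160 genes at an adjusted p, with no member among them.

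The single member of the first term was Mkrn3 (log2 coefficient -1.42). For location by day these were Kcnq1 (-3.06), Meg3 (-1.10), Grb10 (1.37), Impact (0.78) and Zdbf2 (2.19). For genotype by day they were H19, Igf2, Dio3 (-2.41), Peg3 (-2.12) and Zim1 (-3.002). Peg3, a zinc finger repressor, read 190 CPM in Space_R9wt_D5 and 31.0 to 39.5 in the other R9wt libraries, while the R9del libraries lay between 70.7 and 125.

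Pairs of members were compared across the 8 libraries, mostly neighbours in 1 cluster (H19 and Meg3 lie on different chromosomes). Of the listed pairs 9 could be computed, and 4 held a gene without a row. The permutation treats the 8 libraries as exchangeable, although each is a different condition, so r and p also hold shared condition effects. Only Mest and Copg2 were related at an adjusted p of 0.05, with Pearson's r = -0.98 (exact permutation p = 9.92e-05, Benjamini-Hochberg adjusted 0.000893) and Spearman's rho = -0.95 (exact permutation p = 0.00114, adjusted 0.0103). Copg2 was highest, at 138 CPM, where Mest was lowest, at 15.1 CPM, and lowest, at 40.4 CPM, where Mest was highest, at 549 CPM. Without the 2 libraries farthest from the median of Mest, r was -0.96. Exons of the 2 genes overlap on opposite strands over 23.0% of the exon length of Mest and 20.2% of that of Copg2, and strand handling is not given in the sources used here. Within the 4 R9wt libraries r was -0.99 and within the 4 R9del libraries -0.96, given with no test. In every matched pair Mest was lower in space and higher in R9del, and Copg2 the reverse. A relation of the 2 genes apart from these condition effects was not tested.

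H19 and Igf2 had r = 0.79 (exact permutation p = 0.0155, adjusted 0.0605), which became 0.76 without the 2 farthest libraries, and rho = 0.69 (exact permutation p = 0.0694, adjusted 0.208). Peg3 and Usp29, which start on opposite strands and run away from each other, with RefSeq windows that share 263 bases, had r = 0.80 (exact permutation p = 0.0202, adjusted 0.0605), 0.82 without the 2 farthest, and rho = 0.83 (exact permutation p = 0.0154, adjusted 0.0692). Neither passed the adjustment. Meg3 and Dlk1 had r = 0.64, Zrsr1 and Commd1 0.38, H19 and Meg3 0.25, Igf2r and Airn 0.23, Snrpn and Ndn 0.07 and Peg10 and Sgce 0.04, with adjusted exact permutation p of 0.20 to 0.93. Their rho, in that order, was 0.62, 0.26, 0.33, 0.43, -0.05 and -0.31, with adjusted exact permutation p of 0.259 to 0.935. With the 2 farthest libraries left out, Peg10 and Sgce had r = 0.70, and Igf2r and Airn 0.79, so these 2 values rested on the libraries left out. Zrsr1 and Commd1 then had r = 0.13. Within the R9wt and within the R9del libraries, given with no test, r was 0.94 and 0.21 for H19 and Igf2. In the same order it was 0.92 and 0.98 for Peg3 and Usp29, and -0.23 and -0.67 for Zrsr1 and Commd1.

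**Figure D5:**
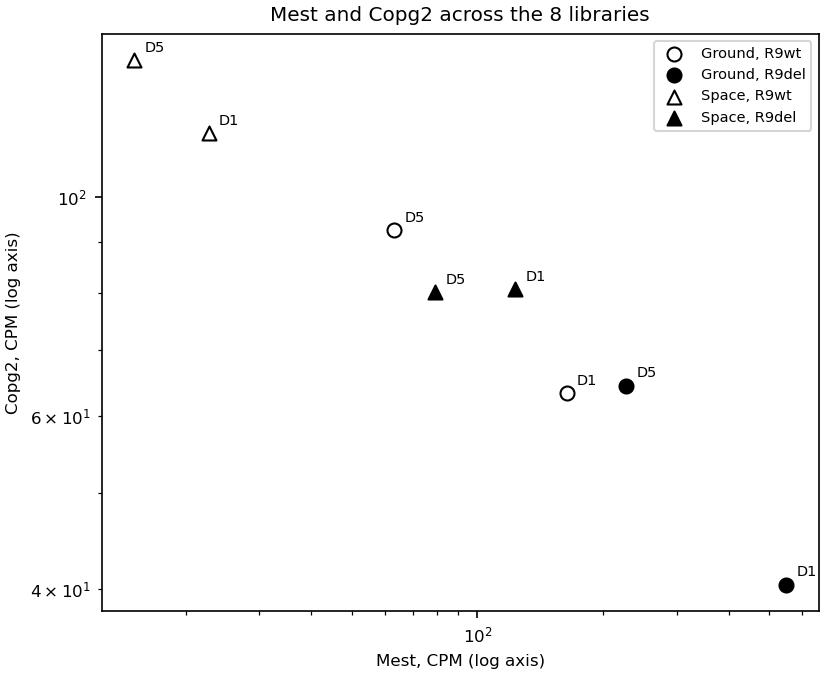
Copg2 against Mest in CPM, both on log axes, with 1 point per library. Circles are ground, triangles are space, open symbols R9wt and filled symbols R9del, and D1 or D5 is written beside each. The points run from Space_R9wt_D5 at the upper left to Ground_R9del_D1 at the lower right.

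Genes that keep imprints were read from a fixed list. Of 16 maintenance factors, all tested, Mbd3 was called lower in space, Zfp57 higher and Dppa3 lower in R9del, and Dppa3 higher at D5. Space thus gave 1 of 16 beside 10.97% of all genes, and D5 gave 1 beside 3.49%. R9del gave 1 higher and 1 lower of 16, beside 13.8% of all genes. In space and in R9del the share was not above that of all genes. Zfp57, the zinc finger protein that binds methylated TGCCGC at control regions, read 830.0, 521, 535 and 810 CPM in R9del and 371, 184, 298 and 440.5 CPM in R9wt, in the order space D1, space D5, ground D1 and ground D5. All 4 R9del libraries were above the 4 R9wt libraries. The log2 fold change was 1.06 with a standard error of 0.30 (adjusted p = 0.0977).

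Mbd3, a subunit of the NuRD complex, read 46.1, 30.5, 56.0 and 35.5 CPM in space and 317, 131, 282 and 242 on the ground, in the order R9wt D1, R9wt D5, R9del D1 and R9del D5. The groups were far apart, and the log2 fold change was -2.53 with a standard error of 0.31 (adjusted p = 0.000872). Dppa3, which shields maternal imprints in the zygote, had log2 fold changes of -1.94 in R9del (adjusted p = 0.191) and 2.18 at D5 (adjusted p = 1.00), with 48.3 CPM in Ground_R9wt_D5 and 2.93 to 17.9 in the other libraries. Trim28, the corepressor that Zfp57 recruits, and Cbx5, a heterochromatin protein, were not called in any of the 3 comparisons, at means of 554 and 437.5 CPM.

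Of 10 genes that set or erase methylation, none was called in any comparison. Tet1, Eed and Dnmt3l had the highest means, at 351, 336 and 157 CPM. Tet1, a methylcytosine dioxygenase, read 83.9 CPM in Ground_R9wt_D5 and 288 to 499 in the other 7 libraries.

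From the list of other imprinted genes, 28 of 37 were tested. Space gave 1 call higher (Ampd3) and 2 lower, H13 and Begain, 3 of 28 beside 10.97% of all genes. H13, the signal peptide peptidase gene that hosts the imprinted Mcts2 in an intron, read 9.44 to 13.4 CPM in space and 40.6 to 61.2 on the ground, a log2 fold change of -2.21 with a standard error of 0.24 (adjusted p = 0.000354). Mcts2 itself was lower in space in all 4 pairs but not called, at -0.44. Genotype gave 2 calls higher, Asb4 and Th, and 3 lower, Slc38a4, Phactr2 and Rasgrf1, 5 of 28 beside 13.8% of all genes. Slc38a4, a paternally expressed amino acid transporter with the highest mean of this list (346 CPM), read 219, 270, 191 and 218 CPM in R9del and 607, 599, 286 and 378 in R9wt, in the order space D1, space D5, ground D1 and ground D5. Its groups did not overlap, and its log2 fold change was -1.06 (adjusted p = 0.0782). Nap1l4 (222 CPM) and Wars (79.5 CPM), the next most abundant, were not called, and D5 against D1 gave no call in this list.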

How the data were processed

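The data are RNA libraries of mESCs, 8 in all with a single one per condition. The authors prepared Illumina mRNA libraries, aligned paired-end reads to mm9 with TopHat2 2.0.9, per the submitters' processing notes, and deposited whole-number read counts per Ensembl gene, neither normalised nor filtered. The counting program, annotation and strand setting are not given in the sources used here, so reads of overlapping or antisense genes could be assigned in more than 1 way. The authors' table was used in full.

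The members, their clusters and usual alleles, and the other lists were chosen with earlier results of these data known. Identifiers were matched to symbols through a gene name table and placed on mm9 gene models, and promoter windows come from RefSeq.

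Counts were scaled by TMM factors (0.929 to 1.04) and tested with edgeR 4.0.16 in R 4.3.3, by its quasi-likelihood test of 4 libraries against 4 without covariates, on the 20544 genes kept by filterByExpr at a minimum count of 10. P-values were adjusted over all tested genes by the Benjamini-Hochberg method. A call needed a 2-fold difference and p under 0.05 before adjustment. Interactions were tested by the same quasi-likelihood test with the main effects of all variables in the model. They are counted by p alone, without a fold limit. Log2 CPM for correlations used a prior count of 2. Exact permutation tests are two-sided. Alternatives were DESeq2 1.42.0 (size factors, and its Wald test), library size alone, no filter, the other variables as additive terms, matched libraries as a replicate block, and leaving out each library. The fits were tested on simulated counts, with a location effect for the group fits and a location-by-genotype effect for the interaction. The group simulation held no genotype or day effects, so it does not cover the spread these add within real groups. Named genes are members that were called or whose groups did not overlap, genes of the fixed pairs, and, from the lists, called genes and the 3 most abundant. In D5 against D1 the fibroblast and early neural calls are given as counts only. Other members are named with values for their cluster.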

Additional observations from a re-analysis of the deposited data

Results flagged for a closer look

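In each group of 4 libraries, members with a single library far from the other 3 were sought by Dixon's ratio on log2 CPM. Of 222 groups, 15 held such a library, for 13 members. The limit used marks about 1 group in 20 by chance among replicates of 1 condition. Here the 4 libraries of a group are different conditions and each library serves in several groups. That rate is therefore no measure of chance for these groups. Of the 15, 7 were Ground_R9wt_D5.

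Ground_R9wt_D5 was high for Cdkn1c (29.2 CPM, other ground libraries 7.45 to 9.23), Igf2r (76.7, other ground libraries 60.1 to 61.0), Kcnq1 (4.65, other R9wt libraries 0.791 to 0.934) and Gnas (231, other D5 libraries 76.0 to 82.7). It was low for Mkrn3 (6.79, other R9wt libraries 16.3 to 17.9), Ppp1r9a (8.02, other D5 libraries 38.7 to 47.0) and Zdbf2 (7.61, other D5 libraries 53.7 to 70.3).

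Ground_R9wt_D1 was low among R9wt libraries for Cd81 (1165 CPM, others 2598 to 2936) and Sgce (17.4, others 55.9 to 66.6). Space_R9wt_D5 was high for Peg3 among R9wt libraries (190, others 31.0 to 39.5) and low for Mcts2 among space libraries (7.17, others 12.8 to 13.7). Among D1 libraries, Space_R9wt_D1 was high for Igf2r (147, others 60.1 to 68.3) and low for Ndn (10.3, others 20.7 to 22.7). Of the R9del libraries, Space_R9del_D5 was low for Plagl1 (1.22, others 3.33 to 3.93) and Ground_R9del_D5 was high for Gnas (82.7, others 76.0 to 76.95).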

How the results depend on the processing

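No member called in a comparison changed direction there under any of the 14 alternatives, though some calls were lost. Apart from leaving out libraries, Phlda2 in R9del reached a log2 fold change of -0.97, under the 2-fold limit. Among members without a call, 11 changed sign under some alternative in space against ground (Slc22a18, Dio3, Mkrn3 and Ndn among them), 11 in R9del against R9wt and 16 in D5 against D1. In space against ground, members at an adjusted p numbered 1 in the analysis reported, 0 by library size alone, 0 without the filter, 6 by DESeq2's Wald test, 9 with the other variables as additive terms and 6 with matched libraries as a replicate block. The shares of all genes in these fits were, in the same order, 6.31%, 6.34%, 2.93%, 11.6%, 10.3% and 8.47%. Grb10 was among these with additive terms and with the block. Members called higher numbered 3 with additive terms and 3 with the replicate block, and members called lower 8 and 7. With library size alone 5 members were called lower, beside 6 in the analysis reported. In R9del against R9wt, members at an adjusted p numbered 5 by DESeq2, 8 with additive terms and 8 with the replicate block, the last 2 with Ascl2 among them, and members called higher numbered 8 under each of these. Over all genes the share at an adjusted p was 1.81% in the analysis reported and 9.998%, 7.21% and 8.13% in these fits. Members called lower numbered 5, 6 and 6 in the same fits and 5 with library size alone, beside 6 in the analysis reported. In D5 against D1, the replicate block left 1 member, H19, called higher. The block joins libraries of the same other conditions, since the labels give no replicate pairing.

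Leaving out each library in turn gave, in space against ground, 0 to 1 members higher, 5 to 7 lower and 0 to 3 at an adjusted p, beside 9.98% to 11.7% of all genes called and 3.98% to 5.88% at an adjusted p. In R9del against R9wt it gave 3 to 7 higher, 2 to 6 lower and 0 to 2 at an adjusted p, beside 11.0% to 16.6% of all genes called and 0.0% to 2.49% at an adjusted p. In D5 against D1 it gave 2 to 3 higher, 0 lower and 0 at an adjusted p, beside 2.49% to 4.35% of all genes called and 0.0% at an adjusted p. With Ground_R9wt_D5 left out, R9del against R9wt kept 3 higher and 2 lower. The median log2 fold change of the members in R9del lay between -0.10 and 0.15 over all settings and changed sign, so no direction is read from it. The cause was not tested. With 1 library per condition, genes of few counts, such as Airn (4 to 69 counts) and Kcnq1 in R9del (2 to 21 counts), are the least precise.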
